A study of Mus musculus with 4 samples.

Results

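Immediate early genes are those that a cell can transcribe within minutes of a stimulus without first making new protein. The genes described here are 10 of them, Fos, Fosb, Jun, Junb, Atf3, Egr1, Nr4a1, Myc, Ier2 and Btg2, chosen by name. Earlier results of these data were known when they were chosen. All 10 were measured, by 12 probe sets that the platform annotation assigns to exactly 1 gene, among 12393 genes in all. Btg2 and Jun each had a pair of probe sets, of which the brighter stood for the gene and the other served as a check. The samples were 4 arrays of whole normal skeletal muscle, 2 titled skm (skm4 and skm5) and 2 titled nm (nm7 and nm8), all from wild type mice on a mixed 129S4/SvJae and C57BL/6 background. The labels give no treatment, age or muscle, and do not say what the prefixes stand for, so the skm minus nm difference sets 2 pairs of like-labelled arrays side by side, not a condition against a control. The series as a whole concerns sarcomas of muscle, which were not analysed here.

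As background, growth factors, calcium, cyclic AMP, stretch and stress reach these genes through kinases that act on factors already bound at their promoters, such as SRF with its ternary complex partners and CREB. Fos and Jun proteins pair into the AP-1 complex, Egr1 is a zinc finger factor, Nr4a1 is an orphan nuclear receptor, and Myc pairs with Max to drive growth genes. In skeletal muscle, contraction and handling of the tissue are known to induce many of them, and Nr4a1 is known for its control of glucose use in muscle of rodents. The transcripts are short-lived, because phosphatases, RNA-destabilizing proteins and corepressors that the same signals induce shut the response down.

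Values are log2 expression values from robust multi-array averaging (RMA), so a difference of 1 is 2-fold. The tissue label was read against 7 measured genes of muscle fibres, among them Acta1, Ckm and Myh4. Their mean levels were 14.54 and 14.50 in skm4 and skm5, against 14.56 and 14.46 in nm7 and nm8. These lie near the highest value of any probe set, 14.76, where RMA compresses differences, so equal fibre content cannot be read from them. Several features of the arrays moved with the prefix. The 3 control probe sets for 18S ribosomal RNA averaged 11.45 and 11.72 in skm4 and skm5, against 13.27 and 13.19 in nm7 and nm8. The 3' minus 5' difference of the beta-actin control, a measure that RNA integrity and labelling can shift, was -0.45 and -0.44 in skm4 and skm5, against 0.62 and 0.56 in nm7 and nm8. All 6 measured lymphocyte markers read lower in both skm arrays than in either nm array. Their summed level was 35.3 to 43.9 in skm and 50.98 to 52.5 in nm, and the dimmest value was 4.85 for Ms4a1 in skm4, where the controls for an absent bacterial sequence read up to 3.93. The 4 measured keratinocyte markers were high in skm5 alone, with mean levels of 5.80 and 7.94 in skm4 and skm5, against 5.52 and 5.85 in nm7 and nm8. The part of these features in the results below was not tested. In whole tissue, fewer cells of a type and less RNA per cell cannot be told apart.

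The prefixes did not overlap for 4 of the 10 genes, Nr4a1 on the high side in skm and Egr1, Atf3 and Myc on the low side, while the AP-1 genes Fos, Fosb, Jun and Junb overlapped, as did Ier2 and Btg2. In limma's moderated test over all 12393 genes with Benjamini-Hochberg adjustment at 0.05, 0 of the 10 passed, where 0.0323% of all genes did. At an unadjusted p under 0.05, 4 of 10 stood below the threshold, against 23.5% of all genes. A share of 4 in 10 without overlap is no more than the background, since 54.4% of all genes had none, 25.8% higher and 28.6% lower in skm. The genes did vary more in size than all genes. Of the 10, 4 had a range over 1 on the log2 scale, against 5.98% of all genes. Their median SD was 0.33 (n = 4), against 0.19 over all genes. Such spread was not particular to them: the 12 muscle genes named below had 41.7% and 0.37, and the 12 feedback inhibitors 16.7% and 0.35. The other lists named below had lower values than the 10 genes. For the 10 genes, distances between arrays of the same prefix were also wide. The median gap was 0.42 between skm4 and skm5 and 0.35 between nm7 and nm8, against 0.16 and 0.14 over all genes.

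**Figure D1:**
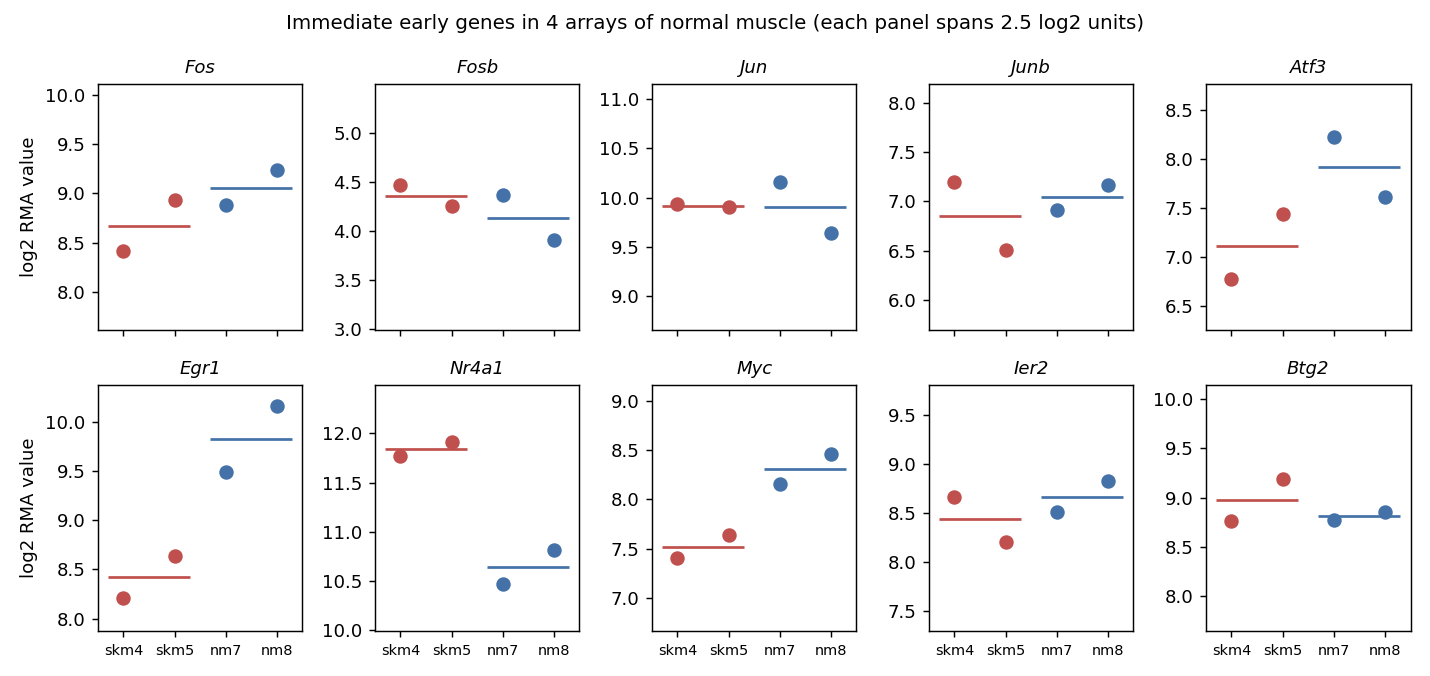
Log2 RMA values (vertical axis) of the 10 immediate early genes in each array (horizontal axis), with skm arrays in red, nm arrays in blue and each prefix's mean as a line. Nr4a1 stood higher in both skm arrays, Egr1, Atf3 and Myc stood lower, and the other 6 overlapped. Levels are not comparable between panels.

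Nr4a1, the orphan nuclear receptor Nur77, read 11.78 in skm4 and 11.91 in skm5, against 10.47 in nm7 and 10.81 in nm8. Both skm arrays lay above both nm arrays, and the gap between the prefixes exceeded the gaps within them, which were 0.14 in skm and 0.34 in nm. The difference was 1.21 ± 0.16 on the log2 scale (SE, n = 2 per prefix), or 2.31-fold higher in skm. It missed the threshold in limma's test with an adjusted p = 0.0506, a value that 130 genes shared. Of the other Nr4a receptors, which bind the same response element, Nr4a3 differed by 0.39 ± 0.14 and Nr4a2 by 0.12 ± 0.15. Both receptors were chosen for mention with their values known.

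Promoter windows of 7 of the 10 genes were examined, from RefSeq on GRCm38.p6. Each reached from 250 bases before to 50 bases after the annotated start. Egr1, Ier2 and Myc were not among the 7, and windows on the chromosome that holds Egr1 were left out of the selection. They are shown for 3 of the genes with values that set the prefixes apart on some probe set, and for Fos, whose promoter is the textbook example. Each is written 5' to 3' on the gene's strand, with matches to TGACG, the core of the cAMP response element, in capitals (CGTCA where it lies on the other strand).
Nr4a1, chr15:101266596-101266895, plus strand: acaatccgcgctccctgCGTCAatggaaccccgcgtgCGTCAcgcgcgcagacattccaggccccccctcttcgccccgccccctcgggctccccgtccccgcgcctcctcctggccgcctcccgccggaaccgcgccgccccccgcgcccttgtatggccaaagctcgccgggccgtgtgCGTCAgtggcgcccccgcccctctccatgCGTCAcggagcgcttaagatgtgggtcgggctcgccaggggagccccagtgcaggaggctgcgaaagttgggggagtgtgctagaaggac
Btg2, chr1:134079106-134079405, minus strand: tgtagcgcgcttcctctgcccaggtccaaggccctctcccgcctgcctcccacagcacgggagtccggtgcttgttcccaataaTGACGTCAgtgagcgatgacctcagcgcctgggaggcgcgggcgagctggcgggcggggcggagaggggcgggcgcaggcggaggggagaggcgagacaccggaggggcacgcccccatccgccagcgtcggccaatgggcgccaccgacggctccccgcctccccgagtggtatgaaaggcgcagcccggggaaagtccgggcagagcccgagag
Atf3, chr1:191183284-191183583, minus strand: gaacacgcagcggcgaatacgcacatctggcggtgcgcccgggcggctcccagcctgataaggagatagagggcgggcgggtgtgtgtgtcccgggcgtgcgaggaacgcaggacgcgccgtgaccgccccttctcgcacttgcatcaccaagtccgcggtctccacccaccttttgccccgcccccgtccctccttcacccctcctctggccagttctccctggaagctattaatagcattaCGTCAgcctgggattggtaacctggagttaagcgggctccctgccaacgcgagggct
Fos, chr12:85473640-85473939, plus strand: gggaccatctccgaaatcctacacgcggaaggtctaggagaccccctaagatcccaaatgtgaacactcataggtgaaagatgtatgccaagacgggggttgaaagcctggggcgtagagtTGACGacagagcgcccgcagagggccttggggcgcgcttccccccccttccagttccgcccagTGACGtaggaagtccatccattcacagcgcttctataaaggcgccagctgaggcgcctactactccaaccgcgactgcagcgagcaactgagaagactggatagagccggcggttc
The Nr4a1 window held 4 cores, at -233 to -229, -213 to -209, -69 to -65 and -40 to -36 relative to the start. Of 32851 promoter windows of the same length, which include several starts for some genes, 20.8% held at least 1 core and 0.231% held 4 or more. In Btg2 a pair of cores overlapped to form the full element TGACGTCA at -166 to -159, which 1.79% of windows held. Fos had cores at -129 to -125 and -66 to -62, and Atf3 had a single one at -7 to -3. In all, 6 of the 7 windows held the core, Jun being the exception. The AP-1 site TGANTCA was found in 7.81% of windows and the serum response element (CArG box) in 1.63%. Neither had an exact match in any of the 7 windows. Elements more than 250 bases before the start, and variants of these strings, could not be found by this search. A match is a string of letters, not a measured site, and genes with such matches had values on both sides of the prefix difference.

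Egr1, the zinc finger factor, read 8.21 in skm4 and 8.63 in skm5, against 9.49 in nm7 and 10.16 in nm8. Both skm arrays lay below both nm arrays, with nm8 the highest. The difference was -1.41 ± 0.26, or 2.65-fold lower in skm, with an adjusted p = 0.069 in limma's test. It had the widest range of the 10 genes, 1.95, and an SD of 0.87 (n = 4). Its relatives Egr2 and Egr3, also chosen with their values known, overlapped between the prefixes, at 0.22 ± 0.26 and 0.29 ± 0.20.

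Myc, which drives growth genes with its partner Max, read 7.40 and 7.64 in skm4 and skm5, against 8.15 and 8.46 in nm7 and nm8. The arrays stood in the same order as for Egr1, from skm4 as the lowest to nm8 as the highest. The difference was -0.78 ± 0.16, or 1.72-fold lower in skm, with an adjusted p = 0.077 in limma's test. The mean level of the lymphocyte markers had this order too, as did that of the 6 measured macrophage markers. Lymphocyte means were 5.88 and 7.31 in skm4 and skm5, against 8.50 and 8.74 in nm7 and nm8. Macrophage means were 8.32 and 8.60 in skm4 and skm5, against 8.63 and 8.67 in nm7 and nm8. Of the macrophage markers, 4 overlapped between the prefixes. Mean levels of adipocyte and satellite cell markers were also lower in both skm arrays, but with nm7 the highest. The part of these cell types in the differences of Egr1 and Myc was not tested.

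Atf3, a stress-induced factor that pairs with Jun proteins, read 6.78 and 7.44 in skm4 and skm5, against 8.22 and 7.62 in nm7 and nm8. The prefixes did not overlap, but skm5 and nm8 lay close together, and the gaps within a prefix, 0.66 in skm and 0.61 in nm, were nearly as large as the difference of -0.81 ± 0.29. Its adjusted p was 0.18 in limma's test. The difference was -0.51 without nm7 and -0.48 without skm4, but -1.11 without nm8 and -1.14 without skm5.

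**Figure D2:**
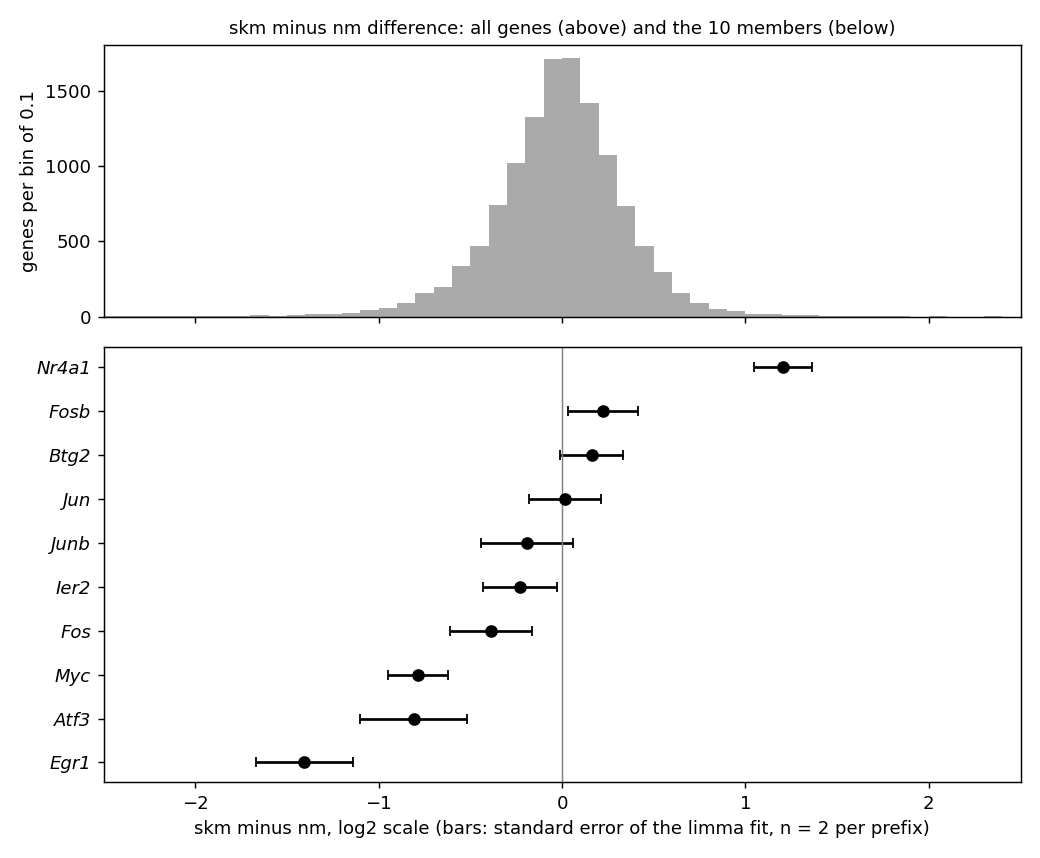
Distribution of the skm minus nm difference over all 12393 genes (upper panel, genes per bin of 0.1) and the difference of each of the 10 immediate early genes with its standard error (lower panel), both on the log2 scale. Nr4a1 at 1.21 and Egr1 at -1.41 lie in the thin tails, and Jun lies at 0.02.

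Among the AP-1 genes, Fos, the founding subunit, read 8.41 and 8.93 in skm4 and skm5, against 8.88 and 9.24 in nm7 and nm8. The low value of skm4 set the mean of its prefix, while skm5 lay between the nm arrays. The difference was -0.39 ± 0.22 with an adjusted p = 0.35 in limma's test, and it was -0.13 without skm4, -0.21 without nm8, -0.57 without nm7 and -0.65 without skm5. Fosb, a Fos relative with a long-lived splice form, read 4.47 and 4.25 in skm4 and skm5, against 4.37 and 3.90 in nm7 and nm8. These values lay close to the controls for TrpnX, a bacterial sequence absent from mouse RNA, which reached 3.93 and 3.79 in skm4 and skm5, against 3.91 and 4.05 in nm7 and nm8. In nm8 Fosb lay below the highest of them, so its difference of 0.22 ± 0.19 is limited by the background.

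Jun, the main partner of Fos, read 9.93 and 9.90 in skm4 and skm5, against 10.16 and 9.64 in nm7 and nm8. Both skm arrays fell between the nm arrays, and the difference was 0.02 ± 0.20. Its other probe set read 9.31 and 9.42 in skm4 and skm5, against 9.69 and 9.43 in nm7 and nm8, a difference of -0.20 ± 0.15 when each probe set was tested on its own (limma over 20380 probe sets, adjusted p = 0.49). Junb, an AP-1 subunit that opposes Jun in growth control, read 7.20 and 6.50 in skm4 and skm5, against 6.92 and 7.17 in nm7 and nm8. The lowest array was skm5 and the highest skm4, so the prefixes overlapped fully, with a difference of -0.19 ± 0.25.

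Ier2, a small nuclear protein of the early response, read 8.67 and 8.21 in skm4 and skm5, against 8.51 and 8.82 in nm7 and nm8. As for Junb, skm5 was the lowest array, which was also the array with high keratinocyte markers, whose part was not tested. The Euclidean distance between the centred profiles of Ier2 and Junb over the 4 arrays was 0.175, the smallest of any pair among the 10 genes. The difference of Ier2 between the prefixes was -0.23 ± 0.20.

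Btg2, an antiproliferative coregulator that p53 and growth signals both induce, gave values that depended on the probe set. The brighter probe set read 8.76 and 9.19 in skm4 and skm5, against 8.77 and 8.85 in nm7 and nm8. It overlapped between the prefixes, at 0.16 ± 0.17 with an adjusted p = 0.63 in limma's test. The dimmer one read 7.57 and 7.16 in skm4 and skm5, against 8.33 and 8.36 in nm7 and nm8. Both skm arrays lay below both nm arrays there, with a difference of -0.98 ± 0.17 when each probe set was tested on its own (limma, adjusted p = 0.057). The highest array on the first probe set, skm5, was the lowest on the second, so no direction is given for Btg2, and skm5 is again the array with high keratinocyte markers. Where the probe sets lie in the transcript was not analysed here, and the part of the 5' to 3' shift seen in the actin control was not tested.

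**Figure D3:**
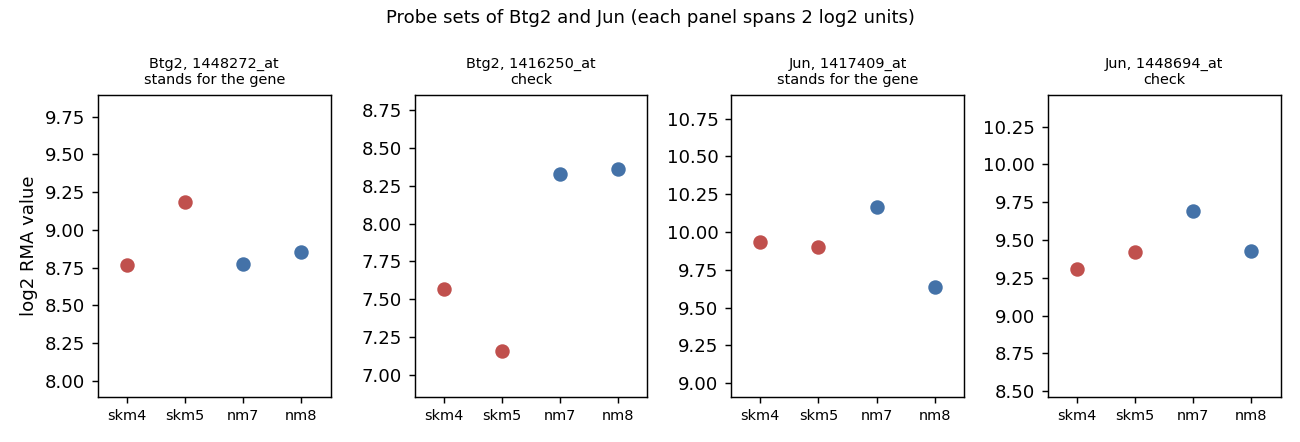
Log2 RMA values (vertical axis) in each array (horizontal axis) for both probe sets of Btg2 and of Jun, skm in red and nm in blue. The Btg2 probe sets differed in direction, with skm5 at 9.19 on the first, the highest array, and at 7.16 on the second, the lowest.

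Proteins that end the response form a list of 14 genes, of which 12 were measured. The prefixes did not overlap for 11 of the 12, 3 higher and 8 lower in skm, against 54.4% of all genes, and 0 passed limma's test over all genes, with 10 at an unadjusted p under 0.05, against 23.5% of all genes. The list's median difference was -0.48, against -0.0034 over all genes, and its median absolute difference was 0.49, against 0.20. On the high side with Nr4a1 was Dusp1, a phosphatase of MAP kinases, at 11.86 and 12.10 in skm4 and skm5, against 11.25 and 11.32 in nm7 and nm8 (0.69 ± 0.14, adjusted p = 0.073 in limma's test). Zfp36, which destabilizes early messages, stood beside it at 0.63 ± 0.18. Its relatives Zfp36l1 and Zfp36l2, chosen with their values known, lay on the opposite side, at -0.50 ± 0.15 and -0.49 ± 0.22. On the low side with Egr1 was Socs3, an inhibitor of cytokine signalling, at 7.73 and 8.04 in skm4 and skm5, against 8.71 and 8.93 in nm7 and nm8 (-0.94 ± 0.16, adjusted p = 0.063 in limma's test). The phosphatases Dusp2 and Dusp6 differed by -0.70 ± 0.25 and -0.65 ± 0.17, on the opposite side from Dusp1. The corepressors of Egr1 itself, Nab1 and Nab2, chosen with their values known, also read lower in skm, at -0.46 ± 0.14 and -0.49 ± 0.13.

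**Figure D4:**
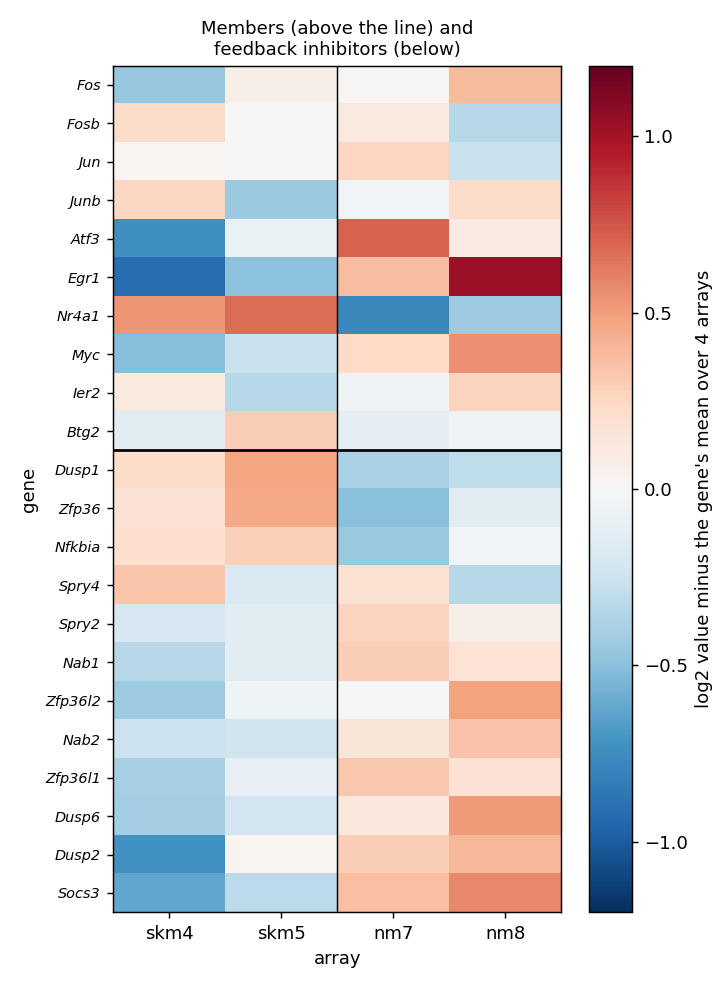
Log2 value of each gene (rows) in each array (columns) minus that gene's mean over the 4 arrays, for the 10 immediate early genes above the line and 12 feedback inhibitors below it. Red is above and blue below the gene's mean. Dusp1, Zfp36 and Nfkbia have the sign of Nr4a1 in all 4 arrays, and most other inhibitors that of Egr1.

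Of 20 other immediate early genes, 19 were measured, of which 7 were higher and 2 lower in skm without overlap and 10 overlapped, against 54.4% of all genes without overlap. Of the 19, 0 passed limma's test, and 5 were at an unadjusted p under 0.05, all higher in skm, against 23.5% of all genes in either direction. Their median difference was 0.17, against -0.0034 over all genes. Ccn2, a matricellular protein also called CTGF, differed by 0.97 ± 0.23, Gadd45b, a growth arrest gene, by 0.79 ± 0.19, Trib1, a pseudokinase, by 0.64 ± 0.15, and Rhob, a small GTPase, by 0.58 ± 0.14. Each of these had an adjusted p of 0.093 to 0.097 in limma's test.

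The other AP-1 subunits and partners, all 12 measured, had a median difference of 0.07. Without overlap, 3 were higher and 2 lower in skm, against 54.4% of all genes without overlap, and the other 7 overlapped. Among them 0 passed limma's test and 1 was at an unadjusted p under 0.05, against 23.5% of all genes. Fosl1, a Fos relative, differed by 0.81 ± 0.36, Atf2, which pairs with Jun, by -0.33 ± 0.12, Jdp2, a repressive partner, by 0.28 ± 0.12, and Maff, a small Maf protein, by -0.22 ± 0.13. Fosl2 at 0.06 ± 0.15 and Jund at -0.09 ± 0.12 overlapped between the prefixes, as the 4 Fos and Jun genes described above did.

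Of the upstream kinases and factors, 15 of 19 were measured, with 4 higher, 6 lower and 5 overlapping, against 54.4% of all genes without overlap. Of the 15, 0 passed limma's test and 5 were at an unadjusted p under 0.05, against 23.5% of all genes. Srf, which binds the serum response element, differed by 0.36 ± 0.14, and Elk4, one of its partners, by -0.44 ± 0.12. The kinases Rps6ka3 and Mapk9 differed by -0.61 ± 0.13 and -0.41 ± 0.12. Of the 12 partners and targets of Myc, all measured, 4 were higher and 2 lower in skm without overlap, against 54.4% of all genes, and 6 overlapped. Of the 12, 0 passed limma's test and 2 were at an unadjusted p under 0.05, both higher in skm, against 23.5% of all genes in either direction. Max, the partner of Myc, differed by 0.44 ± 0.13, Cad, a pyrimidine synthesis enzyme, by 0.40 ± 0.17, Mxd4, a repressive partner of Max, by 0.33 ± 0.11, and Mnt, another, by -0.31 ± 0.18. The median of the Myc list was 0.09, beside -0.78 for Myc itself. Because the list mixes partners, repressive partners of Max and target genes, its median is no measure of Myc activity.

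Of 8 stress genes known to act with Atf3, 2 were higher and 1 lower in skm without overlap, against 54.4% of all genes, and 5 overlapped. Of the 8, 0 passed limma's test and 2 were at an unadjusted p under 0.05, in opposite directions, against 23.5% of all genes. Ddit4, an inhibitor of mTORC1, differed by 2.52 ± 0.41, Chac1, a glutathione-degrading enzyme, by 1.41 ± 0.72, Asns, which makes asparagine, by -0.58 ± 0.15, and Trib3, a pseudokinase, by 0.40 ± 0.22. Chac1, which read 9.43 and 10.15 in skm4 and skm5, against 7.25 and 9.50 in nm7 and nm8, overlapped between the prefixes, and so did Trib3. Atf4, the factor upstream of Atf3 in the integrated stress response, was chosen with its value known and overlapped at -0.11 ± 0.14. Of 12 muscle genes that respond to exercise, calcium or stress, 2 were higher and 6 lower in skm without overlap, against 54.4% of all genes, and 4 overlapped. Of the 12, 0 passed limma's test and 4 were at an unadjusted p under 0.05, 2 in each direction, against 23.5% of all genes. Mt2, a metallothionein, differed by 1.29 ± 0.17 (adjusted p = 0.0506 in limma's test), Ankrd1, a stretch-responsive gene, by 1.09 ± 0.49, Csrp3, a Z-disc protein, by -1.03 ± 0.27, and Xirp1, which binds actin at sites of damage, by -0.80 ± 0.15. Of these 4, Ankrd1 overlapped between the prefixes.

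The genes most like Fos over the 4 arrays were sought by the Euclidean distance between centred profiles. The search covered 553 others with an SD of at least 0.5. Fos itself, with an SD of 0.34, lies below that minimum. Genes that varied as little as Fos were thus not searched, and the minimum kept every distance from being small. Of the genes searched, the nearest were Mcm6, a subunit of the replicative helicase, at a distance of 0.29, and Elovl6, a fatty acid elongase, at 0.30. Next came Fads3, of the fatty acid desaturase family, at 0.31, Mpeg1, a pore-forming protein of macrophages, at 0.32, and Pla2g2d, a secreted phospholipase, at 0.34. In all 5, skm4 was the lowest array and nm8 the highest, as for Fos. For the mean centred profile of the 10 genes, which was nearly flat with an SD of 0.14, the nearest were Ralgps2, Smc2, Mpeg1, Trim21 and Trat1, at distances of 0.64 to 0.65. The minimum SD of 0.5 keeps every gene searched far from so flat a profile, so these distances say nothing of likeness. With 4 arrays, such likeness is a description.

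How far the 4 genes without overlap stood from the threshold depended on the settings of the test. Nr4a1 passed under 6 of the 7 settings that kept all arrays, with adjusted p-values of 0.0068 to 0.049 in limma's test, and missed at 0.054 with each array centred on its median. Egr1 and Myc passed under 2 of the 7. Their values were 0.023 and 0.025 with a level filter, which kept the 6197 genes no dimmer than the median gene. With an intensity trend they were 0.016 and 0.036. Passing was far more common over the whole table under these settings. With the filter 1026 of 6197 genes passed, and with the trend 1110 of 12393, against 4 of 12393 as reported. These passes were thus not particular to Egr1, Myc or Nr4a1. Elsewhere, Nr4a1 passed under settings where 92 to 326 genes or probe sets did. Atf3 passed under none that could test it, at 0.12 to 0.19, having been removed by the level filter. With 1 array left out, the 4 genes kept their directions and 0 passed, at 0.086 to 0.47.

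**Figure D5:**
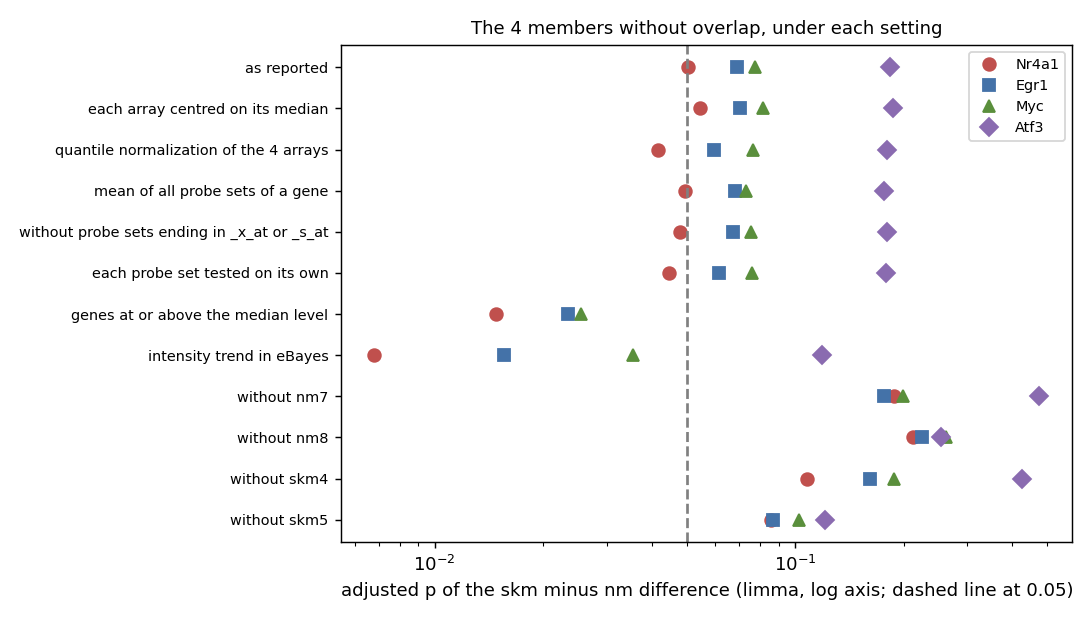
Adjusted p from limma's test of the skm minus nm difference (horizontal log axis) for Nr4a1, Egr1, Myc and Atf3 under the reported setting, 7 alternatives and with each array left out (rows), with the threshold of 0.05 as a dashed line. Nr4a1 lies left of the line under 6 alternatives, and no gene does when an array is left out.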

How the data were processed

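Total RNA of whole muscle was extracted either with a fibrous tissue column kit or with a phenol reagent and columns, per the labels' protocols, which do not tie a route to a sample. The file held a log2 value for each probe set as deposited by the authors. Per the submitters' processing notes they used RMA and Affymetrix Expression Console 1.1. RMA compresses differences near the background and near saturation. The sources used here do not name the arrays that were normalized together.

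Of 22690 probe sets, 64 controls were left out and 20380 had 1 gene in the platform annotation, which gave 12393 genes when the probe set with the highest mean stood for each. The skm minus nm difference was fitted with limma 3.58.1 in R 4.3.3 (lmFit, eBayes, 2-sided, 2 residual degrees of freedom with 3.51 borrowed). Benjamini-Hochberg adjustment ran over all genes, with a threshold of 0.05. The fit was also run on simulated data with independent noise, a check of the code that is no support for the results here. Whether the samples are separate animals is not in the labels, and p-values therefore cover the spread among these arrays alone, which may be technical. The small number of arrays limits the precision. The genes and lists were chosen with earlier results of these data known. All members, the 4 genes of each list with the largest difference, and Dusp1, Zfp36, Srf, Fosl2 and Jund were named by rule, and others are marked as chosen with their values known. Alternatives covered normalization, probe set choice, a level filter, an intensity trend and each array left out.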

Additional observations from a re-analysis of the deposited data

How the results depend on the processing

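Of 107 recomputed differences of the 10 genes, 90 kept their direction and their side of the threshold, 10 kept their direction and came to pass it, and 7 turned in sign. With the mean of all probe sets, Jun differed by -0.091 and Btg2 by -0.41. With 1 array left out, Fosb ranged from -0.0087 (without nm8) to 0.46, Jun from -0.25 (without nm8) to 0.28, Junb from -0.54 to 0.16 (without skm5), Ier2 from -0.46 to 0.0014 (without skm5) and Btg2 from -0.0495 (without skm5) to 0.37. None of these passed the test in either sign, and the cause was not tested beyond the samples or probe sets used. The 4 genes called over the whole table became 186 with quantile normalization, 92 with the mean of probe sets, 142 without probe sets ending in _x_at or _s_at, 1026 with the filter at the median level, 1110 with the intensity trend and 326 with each probe set tested on its own, an alternative added after seeing the data. Leaving out 1 array gave 0 to 15 genes, with 0 without nm7, nm8 or skm4 and 15 without skm5. Of the 10 genes, where 0 passed as reported, 1 passed with quantile normalization, with the mean of probe sets, without those probe sets and with each probe set on its own, and 3 passed with the level filter, which left 7 of the 10, and with the trend. With 1 array left out 0 passed, in fits where the lone array of a prefix is assumed to vary like the others. The median SD of the 10 genes was 0.32 to 0.41 with 1 array left out, and their median difference, -0.21 as reported, was -0.35 to -0.02. No paired analysis was possible because the 4 samples form 1 group with no shared replicate numbers. Fosb, near the background, limits what can be read at the low end.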
